A study of Triticum aestivum with 161 samples.

Results

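Developing wheat grain from RAGT was compared with grain from Rothamsted in 2010, with 18 arrays from each site, 36 of the 161 arrays of a field study of bread wheat (Triticum aestivum). The arrays were chosen by their labels: all those of 2010 from plots given 200 kg of nitrogen per ha (N200). Each site held the same 6 cultivars (Cordiale, Hereward, Istabraq, Malacca, Marksman and Xi_19) in 3 plots each, and each array measured total RNA of whole caryopses taken 21 days after anthesis, in the middle of grain filling. RAGT is a field site near Cambridge and Rothamsted one at Harpenden, both in the south-east of the UK. The site difference was taken as RAGT minus Rothamsted within a cultivar and then averaged over the 6 cultivars with equal weight, so a rise below means a higher and a fall a lower signal at RAGT. For reference, values are also given for 36 arrays of the same sites and nitrogen supply in 2011, and for 36 of Rothamsted in 2010 at 100 (N100) and 350 (N350) kg of nitrogen per ha. One fit over all 161 arrays gave the spread behind each SE and p-value.

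Each site was 1 place in 1 season, so its soil, weather, management and sampling cannot be told apart. In whole grain, fewer cells of a type and less RNA per cell cannot be told apart either. The plots are named as biological replicates, but nothing says how they were laid out, so p-values measure the spread between plots within a site. At Rothamsted same-numbered plots of different cultivars deviated together (mean correlation 0.20 over 45 pairs, against -0.10 for different numbers), and at RAGT they hardly did (0.06 against -0.03). The 18 plots of a site may therefore not be independent, and calls are also given from the mean of each number over the 6 cultivars, 3 means against 3 (number means, limma), a test chosen after seeing the data.

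A wheat caryopsis joins tissues of different age and fate. The starchy endosperm fills with starch, gluten proteins (gliadins and glutenins) and serpins, while the green pericarp around it is gradually lost. The embryo turns to maturation under abscisic acid (ABA) and then accumulates late embryogenesis abundant (LEA) proteins, dehydrins and the lectin known as wheat germ agglutinin, which accompany desiccation tolerance.

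The arrays of both sites differed little in general measures. The spiked hybridisation controls (9 probe sets) were slightly higher at RAGT, with a median of 11.16 (11.05 to 11.4) against 11.07 at Rothamsted (10.81 to 11.23). Array medians lay between 5.24 and 5.33 on the log2 scale at RAGT and between 5.22 and 5.31 at Rothamsted. For 7 control transcripts the signal at the 3' end minus that at the 5' end, a sign of RNA quality, had a median of 0.917 at RAGT (0.752 to 1.14) and 0.944 at Rothamsted (0.683 to 1.08). The median SD within groups of 3 plots was 0.160 at RAGT and 0.171 at Rothamsted, and the number of arrays limits the precision. Arrays departed from the mean of their group by 0.0942 to 0.199 at RAGT and by 0.116 to 0.219 at Rothamsted (root mean square over the brighter probe sets). The highest value, 0.219, belonged to Cordiale plot 1 at Rothamsted, with Marksman plot 1 there close to it (0.216). The embryo genes of that Cordiale plot stood apart, and some of the results that rest on it are also given without it. At RAGT the highest value was that of Malacca plot 1.

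Genes of the maturing embryo made up the largest named falls. EM and EMH2, both LEA proteins of the embryo, Rab15, a dehydrin induced by ABA, and WGA2, a wheat germ agglutinin, were all lower at RAGT, by about 3 on the log2 scale for EM and EMH2. Of the 10 probe sets of 5 embryo markers (these 4 genes and LEA1), 10 fell, 0 rose and the median difference was -2.15. Over all 61178 probe sets 30.5% were called in either direction, 15.9% higher and 14.6% lower at RAGT, at an adjusted p under 0.05 (limma, moderated test of the contrast with Benjamini-Hochberg adjustment), with a median difference of 0.025.

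EM (Ta.2798.1.S1_s_at) ran from 4.37 to 7.90 at RAGT (median 5.99, n = 18) and from 6.61 to 11.60 at Rothamsted (median 9.29, n = 18). In Marksman the RAGT plots read at most 6.77 and the Rothamsted plots 11.60, 11.28 and 11.07. In Hereward they read 7.90, 7.90 and 7.87 at RAGT, the highest of that site, and 10.59, 9.36 and 10.24 at Rothamsted. The ranges of the sites thus overlapped across cultivars, but within each of the 6 cultivars every RAGT plot lay below every Rothamsted plot. The mean difference was -3.23 (SE 0.51, adjusted p = 2.88e-07 by limma), which is 9.35-fold. The within-cultivar differences went from -2.08 in Xi_19 to -5.10 in Marksman, with -4.43 in Cordiale, which becomes -5.84 and the largest without plot 1 of Rothamsted. The test over cultivars did not call that variation (adjusted p = 0.902). A second EM probe set (Ta.2798.1.S1_x_at) differed by -2.85 (SE 0.38).

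EMH2 (Ta.25025.1.S1_at) lay between 6.40 and 8.88 at RAGT (median 7.01) and between 7.32 and 12.40 at Rothamsted (median 10.14), again with no overlap inside any of the 6 cultivars. It fell by 3.04 (SE 0.44, adjusted p = 2.93e-08 by limma), and its other 2 probe sets differed by -2.97 and -2.57. EM and EMH2 are related genes, and the suffixes s_at and x_at mark probe sets that can bind related transcripts, so their signals may be shared in part. Their deviations from the group mean correlated at 0.96 over the 36 plots.

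Rab15 (TaAffx.46097.2.S1_at) ranged from 6.08 to 7.94 at RAGT (median 7.13) and from 7.10 to 9.89 at Rothamsted (median 8.83). It fell by 1.73 (SE 0.28, adjusted p = 5.68e-07 by limma), most in Cordiale (-2.34) and least in Hereward (-1.19). A pair of other Rab15 probe sets with higher signals, from 9.70 to 11.34 as site means, both differed by -1.56. WGA2 (Ta.147.1.S1_at) ranged from 7.87 to 9.91 at RAGT (median 9.14) and from 9.69 to 11.31 at Rothamsted (median 10.60). The ranges overlapped slightly, from 9.69 to 9.91, and inside each cultivar the plots were apart. It fell by 1.55 (SE 0.34, adjusted p = 0.000163 by limma). LEA1, another LEA protein, changed least of the embryo markers, from a mean of 11.60 at Rothamsted to 11.26 at RAGT (-0.34, SE 0.09, adjusted p = 0.0028 by limma). COR410, an acidic dehydrin on the LEA and ABA list, had a signal near 3.5 at both sites and did not pass (0.05, adjusted p = 0.477), so that list counted 9 falls among its 10 probe sets.

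**Figure D1:**
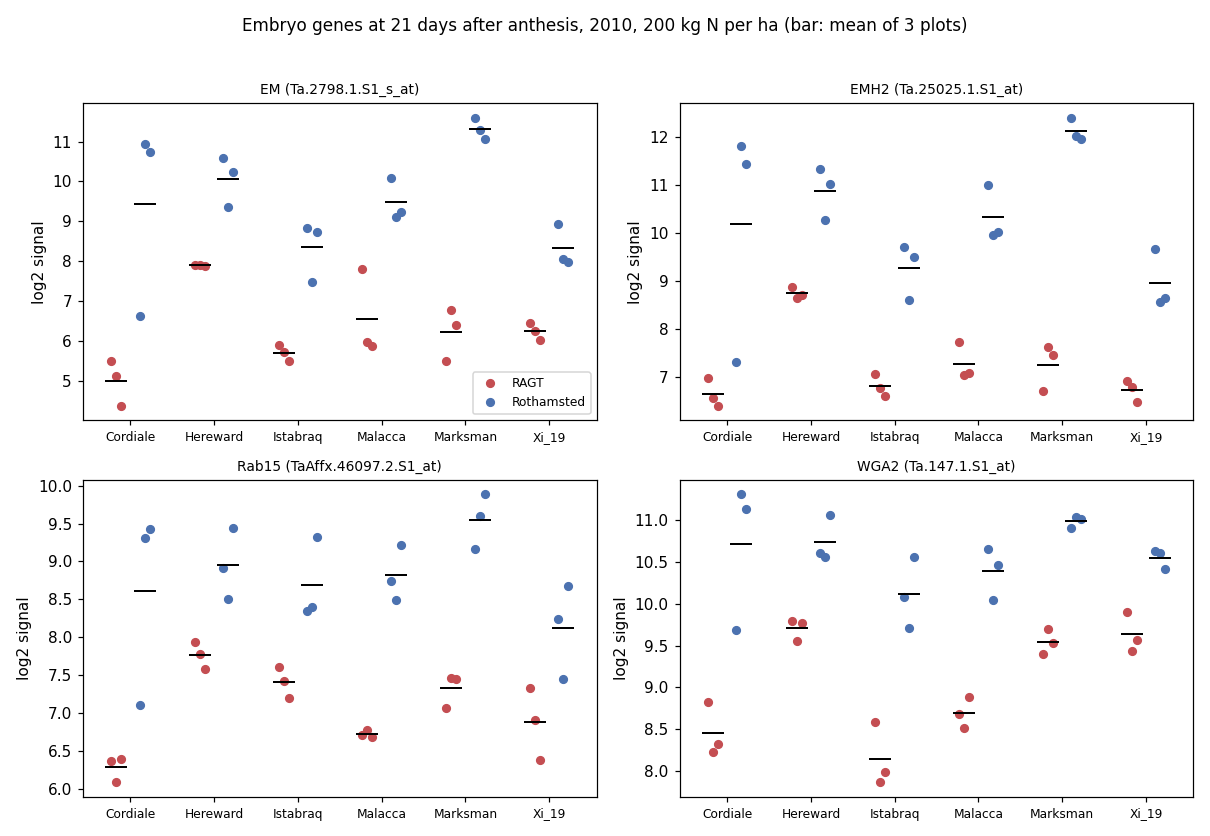
Log2 signal of EM, EMH2, Rab15 and WGA2 in each plot of 2010 at N200, by cultivar (x axis) and site (colour), with bars at the mean of 3 plots. In every cultivar the 3 RAGT plots lie below the 3 Rothamsted plots, and 1 Cordiale plot of Rothamsted lies far below the other two for EM (6.61 against 10.93 and 10.74).

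Cordiale plot 1 of Rothamsted was the lowest of the 3 Cordiale plots there in EM, EMH2, Rab15 and WGA2. Its EM signal was 6.61 where the other Cordiale plots there had 10.93 and 10.74, and its Rab15 signal was 7.10 against 9.30 and 9.43. Leaving it out took the mean difference of EM to -3.46 (SE 0.51, adjusted p = 4.27e-08), of Rab15 to -1.85 and of WGA2 to -1.63 (limma). The LEA and ABA list kept its count of 9 falls without that plot. The spread of EM over all cultivars also differed between environments, with an SD of 3.04 at Rothamsted N200 in 2009 (n = 17) and 0.24 there in 2011 (n = 18). These SDs include differences between cultivars, which the SE leaves out. The pooled SE of 0.51 draws on the plots of all environments and is not that of 2010 alone. In a fit to the 36 arrays alone, the SE of the EM difference was 0.258 (adjusted p = 3.50e-11 by limma). By number means the falls of EM, EMH2, Rab15 and WGA2 were all called (adjusted p = 3.21e-07, 1.14e-07, 0.000247 and 8.78e-06, limma).

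The clear separation inside cultivars was uncommon among all probe sets. All RAGT plots lay below all Rothamsted plots in each of the 6 cultivars in 373 probe sets (0.61%), and above them in 191 (0.312%). Of the 200 probe sets with an informative gene name, 11 were lower in this way and 1 was higher. The 11 belonged to 5 genes: EM, EMH2, Rab15, WGA2 and XIP-I. XIP-I, an inhibitor of xylanases, was named after its values were seen. Its signal (Ta.1200.1.S1_at) was 13.21 to 13.77 at RAGT (median 13.58) and 13.68 to 14.12 at Rothamsted (median 13.87), a fall of 0.31 (SE 0.07, adjusted p = 0.00024 by limma). Across cultivars the 18 arrays of a site stayed apart from the 18 of the other in only 36 probe sets (0.0588%), 14 of them higher (0.0229%) and 22 lower (0.036%) at RAGT, and 0 of the 200 named ones were among them.

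BMY1, a starch-degrading beta-amylase, was the 1 named gene with every RAGT plot higher in each cultivar, and the largest named rise. Its signal (Ta.3.1.S1_at) ran from 7.50 to 9.51 at RAGT (median 8.58) and from 5.72 to 8.77 at Rothamsted (median 7.31). The highest Rothamsted value, 8.77, was that of the Cordiale plot named above, whose neighbours read 6.47 and 6.69. BMY1 rose by 1.33 (SE 0.33, adjusted p = 0.00099 by limma), which is 2.52-fold, with the smallest cultivar difference in Hereward (0.92) and the largest in Cordiale. Without Cordiale plot 1 of Rothamsted the rise was 1.46 (SE 0.34, adjusted p = 0.00033 by limma). Without the plots numbered 3 the rise was 1.02 and lost its call (adjusted p = 0.0603). Starch synthesis genes moved little: AGP-S, the small subunit of ADP-glucose pyrophosphorylase, rose by 0.11 (SE 0.04, adjusted p = 0.0258), a call lost with array medians centred and by number means (adjusted p over its alternatives 0.0025 to 0.229), and Wx-A1, a starch synthase bound to the granule, differed by 0.10 (adjusted p = 0.0964).

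Serpins, a family of serine protease inhibitors abundant in the endosperm, were lower at RAGT, with 5 of 5 probe sets of 4 genes called and a median difference of -0.54. By number means 3 of the 5 were called, those of WSZ1c, WSZ2a and WSZ2b. WSZ1c (Ta.118.1.S1_at) had 9.60 to 11.04 at RAGT (median 10.54) and 9.85 to 11.99 at Rothamsted (median 11.05). It fell by 0.62 (SE 0.11, adjusted p = 3.34e-06 by limma), most in Malacca (-1.13) and Istabraq (-1.04). The sites overlapped broadly for this gene, and the 3 plots of each site were apart in only 2 cultivars. In Cordiale the difference was -0.20 and turned to 0.18 without plot 1 of Rothamsted.

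WSZ2b (Ta.117.1.S1_at) separated the sites better, with 12.10 to 13.11 at RAGT (median 12.67) and 12.72 to 13.67 at Rothamsted (median 13.16). It fell by 0.54 (SE 0.09, adjusted p = 7.25e-07 by limma), and the plots of the sites were apart in 5 cultivars. WSZ2a (Ta.119.1.S1_x_at) fell by 0.58 (SE 0.11, adjusted p = 1.02e-05 by limma), from 12.46 ± 0.93 to 11.88 ± 1.08 (SD, n = 18). Most of its spread came from cultivars, which took 85.3% of its variance over the 36 arrays against 8.09% for the site, because Malacca read 9.47 to 9.71 at RAGT and 10.33 to 10.80 at Rothamsted where no plot of the other cultivars was below 11.83. WSZ1b differed by -0.16 and -0.10 on its 2 probe sets, the smallest falls of the list.

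WSZ1c, WSZ2a and WSZ2b also had the 3 largest absolute differences between N350 and N100 at Rothamsted in 2010 among the 200 named probe sets. The site contrast takes no mean from those arrays, and 20% of all probe sets were called in them. WSZ1c averaged 9.58 ± 0.73 at N100, 11.04 ± 0.50 at N200 and 11.62 ± 0.52 at N350 (SD, n = 18 each), and 10.43 ± 0.41 at RAGT N200. WSZ2b averaged 12.25 ± 0.39, 13.16 ± 0.27 and 13.47 ± 0.25 at these levels, and 12.62 ± 0.24 at RAGT. The RAGT means therefore lay between those of Rothamsted N100 and N200. From N100 to N350 the 5 serpin probe sets rose with a median of 1.22. Set against Rothamsted at all 3 nitrogen levels in place of N200, the RAGT difference of WSZ1c was -0.32, of WSZ2a -0.34 and of WSZ2b -0.34, each still called.

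**Figure D2:**
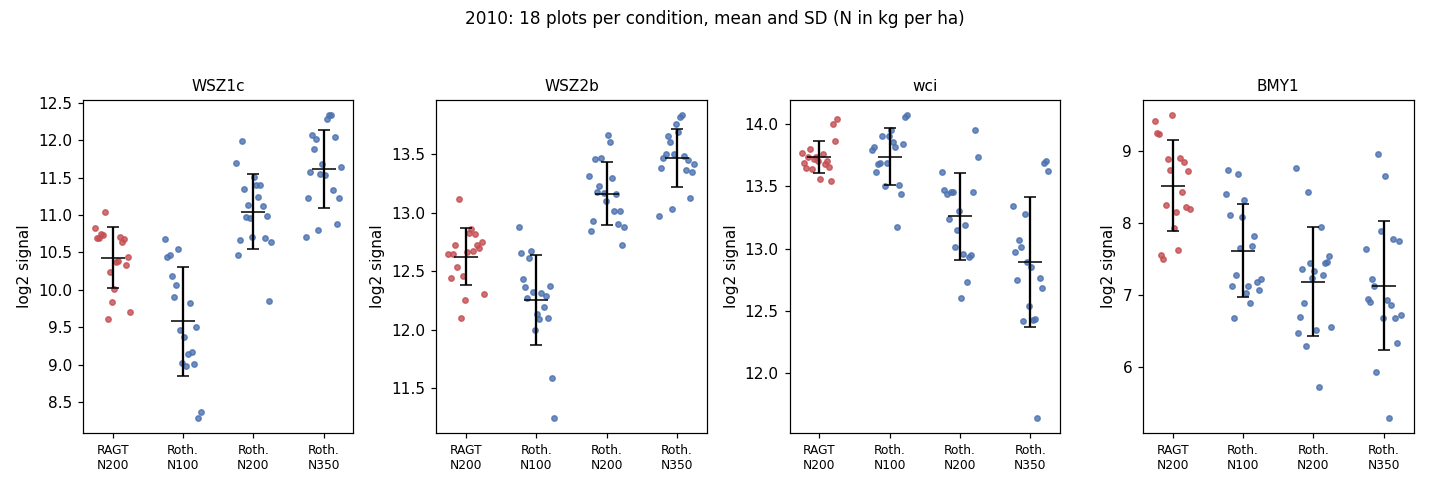
Log2 signal of WSZ1c, WSZ2b, wci and BMY1 in the plots of 2010 at RAGT N200 (red) and at Rothamsted N100, N200 and N350 (blue), 18 plots per condition, with the mean and SD in black. The serpin means at RAGT lie between those of Rothamsted N100 and N200, the wci mean at RAGT (13.74) is equal to that of N100 to 2 decimals, and the BMY1 mean at RAGT (8.52) is above those of all 3 Rothamsted levels.

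Gluten proteins differed little. Of 5 alpha gliadin probe sets 1 fell, 0 rose and 4 did not pass, with a median of -0.06. The called one, Gli-D2-16 (Ta.24114.1.S1_x_at), fell by 0.05 (SE 0.02, adjusted p = 0.0366 by limma) from a level of 14.9 near the top of the scale, where changes can be compressed. That call was lost with only the arrays compared, without Malacca and by number means (adjusted p up to 0.558 over its alternatives). Malacca plot 1 at RAGT read 14.31, the lowest of that site, where the other Malacca plots there had 14.86 and 14.85. GAG56D, a gamma gliadin, gave opposite results on 2 of its 3 probe sets. Ta.28632.1.S1_x_at fell by 0.25 (SE 0.04, adjusted p = 8.49e-07), from a median of 13.69 at Rothamsted to 13.40 at RAGT, and Ta.28632.1.A1_at, at a median of 7.34 and 7.71, rose by 0.27 (SE 0.10, adjusted p = 0.0284, limma), a call lost when any 1 replicate number was left out. The third, Ta.30782.4.S1_at, differed by -0.05. Against Rothamsted at all 3 nitrogen levels the fall of GAG56D shrank to -0.06 and was not called. Glu-D3, a glutenin subunit of low molecular weight, was called on 1 of 3 probe sets (0.40, adjusted p = 0.0417, a call lost when any 1 replicate number was left out), at a low signal of 5.30 against 4.75 (medians), and not on those with means above 12 (-0.07 and -0.003).

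Among the avenin-like storage proteins 4 of 6 probe sets rose and 0 fell, with a median of 0.14, but 0 of 6 were called without the Cordiale plot, with centred array medians or by number means. ALP (Ta.27777.1.S2_at) had 13.02 to 13.85 at RAGT (median 13.41) and 12.29 to 13.72 at Rothamsted (median 13.22), a rise of 0.23 (SE 0.09, adjusted p = 0.0381 by limma) in 5 of 6 cultivars. From N100 to N350 at Rothamsted 6 of these 6 probe sets fell, with a median of -0.54. The amylase and trypsin inhibitors counted 3 rises, 0 falls and 3 not passing, and 1 rise with centred medians or by number means. wci, grouped with them by its symbol, led them, with 13.54 to 14.04 at RAGT (median 13.71) and 12.60 to 13.95 at Rothamsted (median 13.27). It rose by 0.48 (SE 0.06, adjusted p = 5.55e-10 by limma), most in Marksman (0.77) and Malacca (0.75), and the plots were apart in 5 cultivars. Its RAGT plots were also closer to each other, with an SD of 0.13 against 0.35. From N100 to N350 wci fell by 0.84 (SE 0.06).

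Signals of rbcl, the plastid gene of the large subunit of Rubisco, were higher at RAGT. Its 28 probe sets share 1 target gene and are no independent members. Of these 17 rose, 0 fell and 11 did not pass, with a median of 0.17. By number means 11 rose. In 5 of the 28 the mean was at least 6, and all 5 of those rose. TaAffx.128414.181.S1_at had 7.53 to 8.23 at RAGT (median 7.87) and 6.88 to 8.07 at Rothamsted (median 7.45), a rise of 0.42 (SE 0.06, adjusted p = 9.08e-08 by limma). The cultivar differences were 0.64 in Cordiale and 0.08 in Xi_19. On the brightest probe sets, with means of 14.50 to 14.67, the rises were 0.12 and 0.17.

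Of 9 probe sets of nuclear photosynthesis genes 0 rose, 2 fell and 7 did not pass, with a median of -0.09, where 15.9% of all probe sets were called higher and 14.6% lower. FBP, a fructose-1,6-bisphosphatase, fell by 0.23 (SE 0.05, adjusted p = 8.3e-05) and PRK, a phosphoribulokinase that serves carbon fixation, by 0.20 (SE 0.06, adjusted p = 0.0031, limma). The other probe set of FBP was not called. PsbO and PsbP, which belong to the water-splitting side of photosystem II, differed by -0.11 and by -0.04 and -0.07 without a call.

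Markers of other grain tissues moved less than those of the embryo. The mean log2 signal of the 10 embryo probe sets was 7.31 to 9.21 at RAGT (median 7.88) and 8.19 to 11.33 at Rothamsted (median 10.18). For 18 probe sets of the starchy endosperm, serpins included, the medians were 12.40 and 12.54, with 3 rises and 7 falls. That set left out the avenin-like proteins (4 rises and 0 falls among 6) and the amylase and trypsin inhibitors (3 rises and 0 falls among 6), so its balance depends on the genes chosen. For 12 of the aleurone and outer layers they were 11.66 and 11.69, with 1 rise and 3 falls, and for 32 of the green pericarp, mostly rbcl, 5.37 and 5.20, with 17 rises and 1 fall. Histones, made in dividing cells, counted 1 rise and 0 falls among 18 probe sets, with medians of 9.16 and 9.08. The rise was wcH2B-6 (0.18, SE 0.06, adjusted p = 0.0077 by limma), a call lost without the plots numbered 1. Over all probe sets 15.9% were called higher and 14.6% lower, the shares to set beside these counts and those of the gene lists. Bright probe sets were called more often: of 24288 with a mean of 6 or more at the brighter site, 4523 were higher and 6643 lower. Log2 array signals have no zero, so no marker can be said to be absent, and the part of tissue proportions in the other results was not tested.

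**Figure D3:**
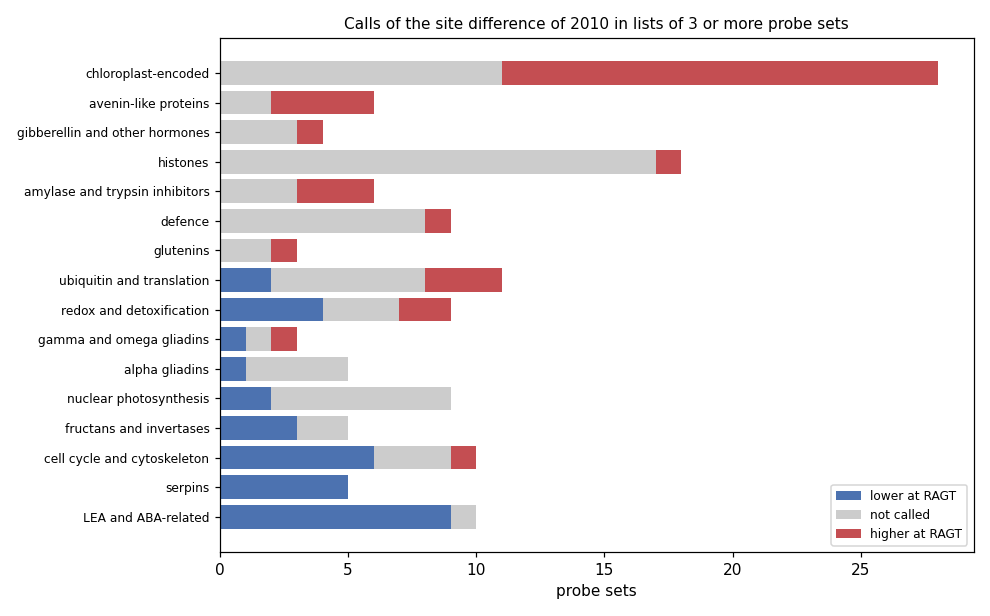
Number of probe sets called higher (red), lower (blue) or not called (grey) at RAGT in 2010, for the gene lists with 3 or more probe sets, ordered by median difference. LEA and ABA-related genes (9 of 10) and serpins (5 of 5) hold only falls among their calls, and the chloroplast-encoded probe sets, all of rbcl, only rises (17 of 28).

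The cytoskeleton list counted 6 falls (5 by number means), 1 rise and 3 not passing, with a median of -0.24, and the falls were all beta-tubulins, components of microtubules. Tubb5 (Ta.214.2.A1_at) had 9.30 to 10.02 at RAGT (median 9.63) and 9.50 to 10.64 at Rothamsted (median 10.07), a fall of 0.41 (SE 0.11, adjusted p = 0.0017 by limma) that was lost without the plots numbered 1 or 2 (adjusted p up to 0.191). tubb2 fell by 0.27 (SE 0.05, adjusted p = 1.88e-05) and tubb1 by 0.23 (SE 0.04). TUBA, an alpha-tubulin, rose by 0.26 (SE 0.10, adjusted p = 0.0263, limma) on 1 of its 2 probe sets, and the call was lost when any 1 replicate number was left out (0.16 without the plots numbered 3). The beta-tubulins tubb3 and Tubb4 differed by 0.14 and 0.03 without a call.

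Fructan exohydrolases, which break down fructan reserves, fell in 3 of 5 probe sets of their list and rose in 0. Of all probe sets 14.6% were called lower. 1-FEH (Ta.199.1.S1_at) had 8.95 to 9.86 at RAGT (median 9.42) and 8.78 to 10.64 at Rothamsted (median 9.80), a fall of 0.37 (SE 0.09, adjusted p = 0.00088 by limma), and 6-FEH fell by 0.26 and 0.23 on 2 probe sets. Without the plots numbered 1 the fall of 1-FEH was 0.24 and not called (adjusted p = 0.134).

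Among the other lists, redox and detoxification genes counted 2 rises and 4 falls among 9 probe sets, where 30.5% of all were called. PER1, which the annotation lists as a peroxidase, had 12.19 to 13.26 at RAGT (median 13.02) and 12.65 to 13.73 at Rothamsted (median 13.38). It fell by 0.40 (SE 0.07, adjusted p = 1.93e-06 by limma), with -0.78 in Cordiale, where plot 1 of Rothamsted was again the lowest of its group (12.65 against 13.28 and 13.27). CAT1, a catalase, fell by 0.36 (SE 0.10, adjusted p = 0.0036) and lgul, a lactoylglutathione lyase, by 0.29 and 0.27. PER1 and CAT1 each had another probe set, and neither of those was called. GSTZ1, a glutathione transferase of the zeta class, rose by 0.22 (SE 0.05, adjusted p = 0.00063, limma), a call lost without the plots numbered 1 (adjusted p = 0.0676). The defence list (9 probe sets) had 1 rise and 0 falls, where 15.9% of all were called higher and 14.6% lower. The rise was LTP3, a lipid transfer protein, at 0.12 (adjusted p = 0.0043 by limma, lost without the plots numbered 2 or 3 and by number means), while the thionins ranged from -0.11 to 0.04 without a call.

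Several genes outside these groups completed the largest named changes. WZF1, a zinc finger protein, had 5.90 to 7.17 at RAGT (median 6.59) and 6.58 to 7.89 at Rothamsted (median 7.45), a fall of 0.79 (SE 0.12, adjusted p = 1.04e-07 by limma), from -0.58 in Xi_19 to -0.97 in Malacca. PEAMT1, a phosphoethanolamine methyltransferase, fell by 0.37 (SE 0.10, adjusted p = 0.0033) and PIMT, a protein-isoaspartate methyltransferase, by 0.35 (SE 0.10, adjusted p = 0.0071, limma). Both calls were lost without the plots numbered 3, with values of -0.18 and -0.22, and that of PEAMT1 also by number means. COMT1, a methyltransferase of lignin synthesis, fell by 0.20 (SE 0.04, adjusted p = 1.57e-05), a call lost by number means (adjusted p = 0.0511, limma).

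Among the rises, HGGT, an enzyme of tocotrienol synthesis, ran from 9.49 to 10.22 at RAGT (median 9.70) and from 8.98 to 9.85 at Rothamsted (median 9.47). It rose by 0.31 (SE 0.05, adjusted p = 2.58e-06 by limma), with 0.53 in Marksman and 0.07 in Xi_19. AGA.1 rose by 0.27 (SE 0.05, adjusted p = 3.35e-05), UBC1, a ubiquitin-conjugating enzyme, by 0.24 (SE 0.07, adjusted p = 0.0036) on 1 probe set, with 0.13 and -0.01 (not called) on its others, and TBP1, a TATA-binding protein, by 0.18 (SE 0.04, adjusted p = 0.00031, limma). Eif4B, a translation initiation factor (0.25, adjusted p = 0.0453), and Hmgb3, a high mobility group protein (0.21, adjusted p = 0.0347, limma), were called near the threshold, and lost the call in 12 and 8 of 21 alternatives. GA20ox1a, a gibberellin 20-oxidase, rose by 0.20 (SE 0.06, adjusted p = 0.0038), and GA20ox1d differed by 0.10 (adjusted p = 0.187). FKBP70, a peptidyl-prolyl isomerase, differed by -0.05 (adjusted p = 0.763), and RPS29, a ribosomal protein at a low signal, fell by 0.24 (adjusted p = 0.0032, limma). Leaving out 1 replicate number ended the calls of UBC1 (number 2), GA20ox1a (1 or 2) and RPS29 (3), and number means that of RPS29.

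Among probe sets without a gene name the largest changes exceeded those of all named genes but EM and EMH2. Ta.30829.1.S1_at had 7.51 to 10.42 at RAGT (median 8.51) and 4.80 to 8.47 at Rothamsted (median 6.04), a rise of 2.64 (SE 0.29, adjusted p = 3.62e-12 by limma). TaAffx.106825.1.S1_at rose by 2.51 (SE 0.31), with medians of 7.98 at RAGT and 4.73 at Rothamsted, but by 5.11 in Marksman against 0.09 in Xi_19. Ta.27399.3.S1_at fell by 2.60 (SE 0.34), from 9.28 to 6.69, and Ta.10549.1.A1_at by 2.42 (SE 0.23), from 6.63 to 4.21. In both of the rises the highest Rothamsted value, 8.47 and 8.04, was again that of Cordiale plot 1.

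In all, 18644 of 61178 probe sets were called, 9738 higher and 8906 lower at RAGT, with a median absolute difference of 0.21, so most changes were small. By number means 11363 were called (5373 higher and 5990 lower), 11067 of them among the 18644 (59.4%). Differences of at least 1.5-fold were called for 331 rises and 592 falls, and of at least 2-fold for 88 and 141. With array medians centred, 7202 were higher and 10222 lower, which moves the share of rises from 52.2% to 41.3%. Where the mean of the brighter site was 6 or more (24288 probe sets), 4523 were higher and 6643 lower. Of the 200 named probe sets 46 rose, 48 fell and 106 did not pass, which is 47% called against 30.5% of all. Most of the named ones had a mean of 6 or more, where 11166 of 24288 were called, and brightness was not matched here. A gene name could be given to few of the largest changes: 1 of the 88 rises and 9 of the 141 falls of at least 2-fold.

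Of the calls 11632 (62.4%) had the same sign in each cultivar, as had 23.7% of all probe sets. Calls rest on the mean of the same 6 differences, so these shares are a description. The sign was shared in 85 of the 88 rises and 141 of the 141 falls of at least 2-fold. Taken alone, Cordiale had 6088 calls (9.95%), Istabraq 2916 (4.77%), Marksman 1578 (2.58%), Malacca 1239 (2.03%), Hereward 10 (0.0163%) and Xi_19 4 (0.00654%). Hereward and Xi_19 also had the smallest typical differences, with a median absolute value over all probe sets of 0.107 and 0.099 against 0.125 to 0.164 in the others. The test of the difference between cultivars called 51 probe sets (0.0834%), and 5218 had an unadjusted p under 0.05. The count of 51 became 7003 with array weights and 0 to 344 when 1 replicate number was left out. Of the named genes with the smallest p in that test, rbcl on TaAffx.128896.17.S1_s_at (adjusted p = 0.249), TaALMT1, an aluminium-activated malate transporter (adjusted p = 0.238), and GA20ox1d (adjusted p = 0.196) did not pass in limma. TaALMT1 differed by -0.03 in the mean over cultivars (adjusted p = 0.744). Over the 23651 brighter probe sets (mean of 6 or more), the site took a median of 10.2% of the variance among the 36 arrays, cultivar 25.2% and their interaction 9.79%.

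**Figure D4:**
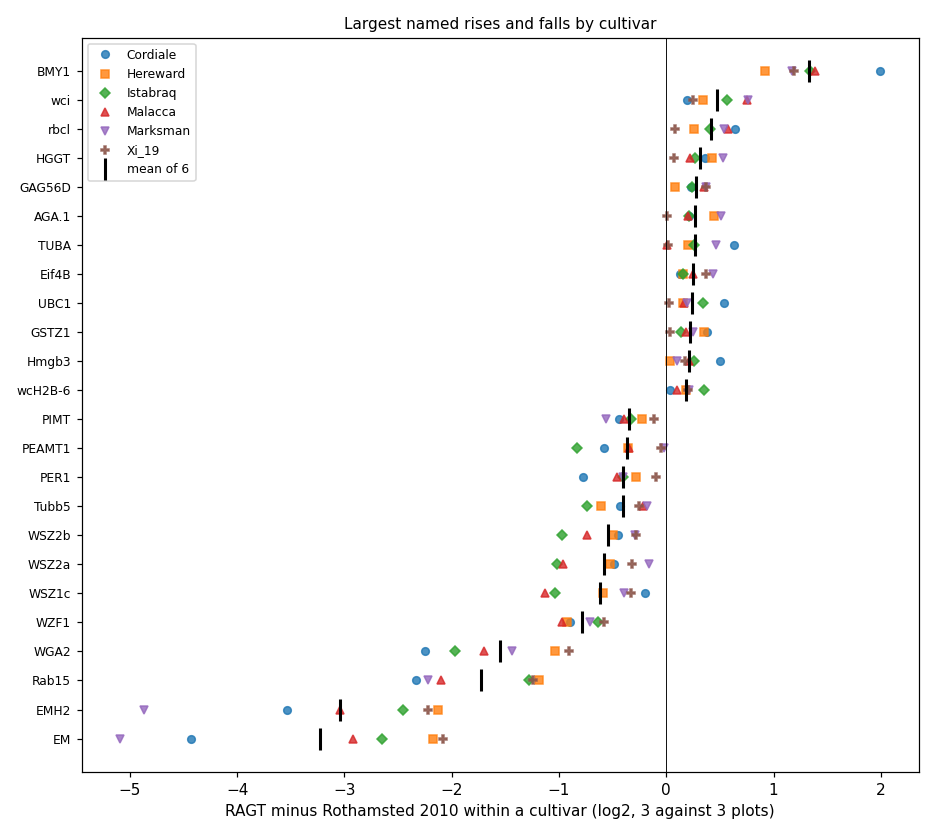
RAGT minus Rothamsted in 2010 (log2, x axis) within each cultivar (symbols, 3 against 3 plots) and as the mean of 6 (black bar), for the 12 largest rises and 12 largest falls among named genes. The rule for naming required the same sign in 6 cultivars; the differences of EM run from -2.08 to -5.10, and that of Cordiale becomes -5.84 without plot 1 of Rothamsted.

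The same contrast in 2011 used 36 other arrays and gave another picture. It called 3559 probe sets (5.82%), 2549 higher and 1010 lower at RAGT. Both years called 1511 probe sets, 431 in the same direction (2.31% of the calls of 2010 and 12.1% of those of 2011) and 1080 in the opposite one. Of the calls of 2010, 29.7% had the same sign in 2011, against 36.4% of all probe sets. The test of the difference between the years called 17998 (29.4%), among them 13219 (70.9%) of the calls of 2010. The 88 rises of at least 2-fold had a median of 1.31 in 2010 and -0.01 in 2011, and the 141 falls a median of -1.26 and 0.07. Set beside N350 minus N100 at Rothamsted in 2010, which used N200 plots of neither site, 76 of these rises and 122 of these falls had the opposite sign, against 42% of all probe sets. This was limited to the largest changes: of the 4420 probe sets called for both site and nitrogen, 1834 (41.5%) had opposite signs.

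The embryo genes had low signals in 2011. EM was 3.10 ± 0.39 at RAGT and 3.05 ± 0.24 at Rothamsted in 2011 (SD, n = 18 each), a difference of 0.04 (SE 0.51). These signals lay at a median percentile of 6.36 among all probe sets of an array, where a fall could hardly have been seen, so the difference between the years (-3.27, SE 0.72, adjusted p = 0.00027 by limma) does not show that the site had no effect in 2011. EMH2 and Rab15 were at median percentiles of 37.5 and 38.5, and WGA2 and BMY1 higher, with medians of 66.5 and 97.2. Levels of different seasons are not set against each other here, since it is not known whether the seasons were normalized together. WGA2 differed by 0.60 in 2011 (SE 0.34, adjusted p = 0.328), and the difference between the years was -2.15 (adjusted p = 0.00031). BMY1 differed by -0.34 in 2011 (adjusted p = 0.616) against its rise of 1.33 in 2010 (adjusted p of the difference 0.0043, limma). PER1, tubb2 and rbcl on TaAffx.128414.146.S1_at had the smallest p among named genes in this test, with differences between the years of -0.61, -0.43 and 0.73.

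Some falls had the same sign in both years. The fall of GAG56D on Ta.28632.1.S1_x_at was called in each, with -0.25 in 2010 and -0.16 in 2011 (adjusted p = 0.0069), and the years did not differ in the test (adjusted p = 0.248). WSZ1c differed by -0.29 in 2011 without a call (adjusted p = 0.0929), and its difference between the years, -0.32 (SE 0.15), did not pass either (adjusted p = 0.0981). WSZ2a and WSZ2b differed by -0.19 and -0.15 in 2011, and their differences between the years were called (-0.39 each, adjusted p = 0.0397 and 0.0121). wci had 0.12 in 2011 (adjusted p = 0.271) against 0.48 in 2010 (adjusted p of the difference 0.00075, limma).

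**Figure D5:**
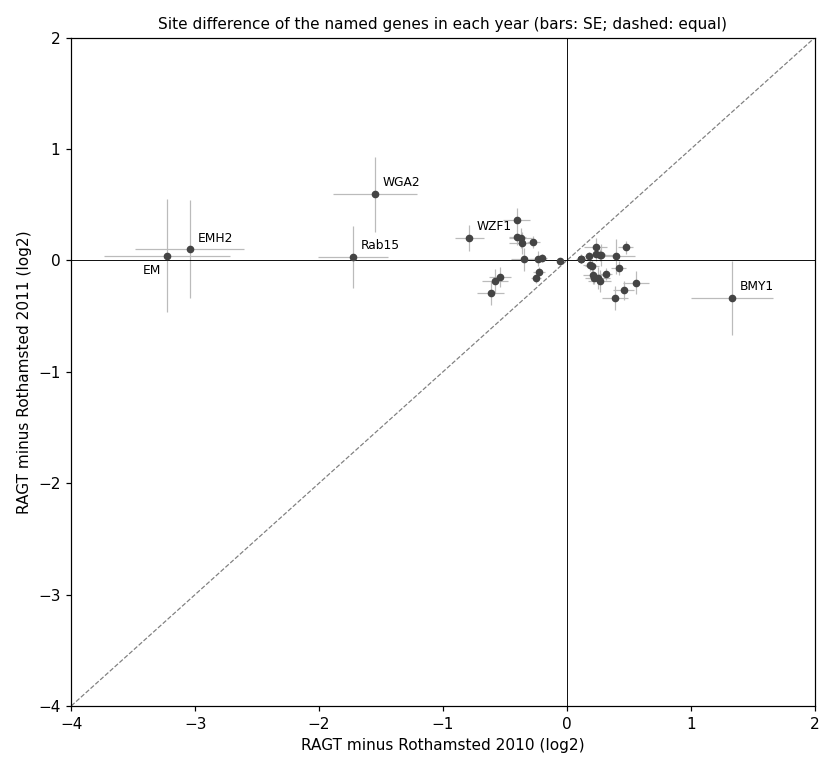
Site difference (RAGT minus Rothamsted, log2) of the 40 called probe sets chosen by the naming rule, in 2010 (x axis) and 2011 (y axis), with SE bars and a dashed line of equality. EM, EMH2, Rab15 and BMY1, at -3.23, -3.04, -1.73 and 1.33 in 2010, lie within 0.34 of 0 in 2011, when EM was near the bottom of the scale at both sites.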

How the data were processed

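Each plot gave 1 Affymetrix wheat array of total caryopsis RNA. The authors deposited log2 signals per probe set, made with RMA per the submitters' processing notes. The sources used here do not give its version or say whether seasons were normalized together. The 1st percentile of the arrays of 2010 was 2.12 to 2.19 at both sites. Sequences and positions of probe sets were not used here.

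Tests covered 61178 probe sets, without the 110 controls of the manufacturer. The platform annotation named 1 gene for 1273 probe sets (771 genes, 770 matched in RefSeq), and 102 genes with 200 probe sets had an informative name. Under R 4.3.3, files were read through data.table (1.17.8), and limma 3.58.1 fitted 1 mean to each of 54 groups over 161 arrays (107 residual degrees of freedom) and tested two-sided contrasts with equal weight per cultivar. The site by cultivar test was an F test, and the site by year test a contrast. P-values were adjusted by Benjamini-Hochberg over all probe sets, and a call is an adjusted p under 0.05. The methods were tested on simulated data.

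Named were the 12 largest rises and falls among genes called, with a mean of 6 or more at the brighter site and the same sign in 6 cultivars (1 probe set per gene), the largest called members of each list in each direction (or, with none, the brightest member), the 3 genes with the smallest p of each interaction test, and 2 unnamed probe sets per direction. The members and lists were chosen with earlier results of these data known. Alternatives were another block, arrays, filter, normalization, weighting, covariate, replicate, cultivar or nitrogen reference; leaving out Cordiale plot 1 of Rothamsted, and number means, were added after seeing the data. Separations within cultivars and tissue marker levels are descriptions.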

Additional observations from a re-analysis of the deposited data

Results flagged for a closer look

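The site difference of 2010 differed from that of 2011 in 17998 probe sets by the interaction test in limma, and differed between cultivars in 51. Among the named genes that passed the test between years, the difference of 2010 minus that of 2011 was -3.27 for EM, -3.14 for EMH2, -1.76 for Rab15 and -2.15 for WGA2 among the embryo genes, and 1.67 for BMY1. It was -0.99 for WZF1, -0.61 for PER1, -0.58 for 1-FEH and -0.52 for PEAMT1. Tubulins gave -0.77 (Tubb5), -0.43 (tubb2) and 0.45 (TUBA). The 4 rbcl probe sets named gave 0.72, 0.48, 0.73 and 0.76. Serpins gave -0.39 for both WSZ2a and WSZ2b, and wci gave 0.36. Values of 0.43 for HGGT, 0.41 for Eif4B, 0.38 for GSTZ1, 0.35 for Hmgb3, 0.25 for GA20ox1a, 0.23 for wcH2B-6 and 0.22 for AGA.1 were more positive in 2010, and -0.25 for RPS29 and -0.22 for COMT1 more negative. Groups of 3 plots were not tested for outlying samples. In 2011 EM was near the bottom of the scale at both sites, where a fall could hardly have been seen.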

How the results depend on the processing

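The naming rule, which favours large changes, chose 43 of the 200 probe sets with an informative name, and 40 of the 43 were called. Of these 40, 18 kept the call and direction in every alternative run (at most 21), EM, EMH2, Rab15, WGA2, WZF1, wci, WSZ1c, WSZ2a and WSZ2b among them. The fold minimum of 1.5 left 923 calls of the site difference. Restricted to probe sets averaging 6 or more, there were 11559 calls for the site (41.1% higher), 25 for the site by cultivar and 11101 for the site by year. Of these site by year calls 36.1% were more positive in 2010, against 51.1% of the 17998 calls among all probe sets. With array medians centred, 37.1% of the site by year calls among all probe sets were more positive in 2010. The site by cultivar count was 7003 with array weights, 89 with the 3' minus 5' covariate, 20 without Malacca and 25 without Marksman. Leaving out 1 replicate number gave 10381 to 16264 calls for the site, 0 to 344 for the site by cultivar and 6394 to 14143 for the site by year. Within cultivars these ranges were 123 to 9598 in Cordiale, 0 to 1 in Hereward, 17 to 2642 in Istabraq, 8 to 3926 in Malacca, 353 to 763 in Marksman and 2 to 4 in Xi_19. With only the arrays compared, Hereward had 180 calls, Malacca 1861, Marksman 2610 and Xi_19 100. Some of these runs also held fewer arrays or probe sets, and the cause of the changes was not tested.

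Same-numbered plots did not deviate together between the sites (correlations of -0.35, 0.09 and -0.23), so the numbers do not pair the sites, but within Rothamsted they did (above 0 in 35 of 45 pairs of cultivars, and in 27 of 45 at RAGT). By number means, with the number within a site as replicate block, there were 11363 calls for the site and 17643 for the site by year. With the number as a block over both sites the counts were 18091, 43 and 22780 for the site, site by cultivar and site by year. As a random block of site, year and number (15 blocks, consensus correlation 0.034) they were 15912, 65 and 14923. Without Cordiale plot 1 of Rothamsted they were 19957, 75 and 19284, with 9014 calls in Cordiale (6088 with it), 12 in Hereward, 3049 in Istabraq and 1639 in Marksman.

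Uncalled values changed sign: leaving out 1 replicate number, GA20ox1d ranged from -0.0168 to 0.158, FKBP70 from -0.158 to 0.0263 and TaALMT1 from -0.106 to 0.0482. GA20ox1d was -0.0139 without Marksman, FKBP70 0.0645 against all nitrogen levels and TaALMT1 0.0935 without Xi_19. Signals near the bottom of the scale, as for TaALMT1 and many rbcl probe sets, limit what can be read from small differences.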

Other observations

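The rises and falls of at least 2-fold had median differences of -0.37 and 0.26 between N350 and N100 at Rothamsted in 2010, and this relation of signs was not tested. Of all probe sets called for both site and nitrogen, 41.5% had opposite signs. hsp16.9A, a small heat shock protein, varied widely between plots, from 9.40 to 11.78 at RAGT and from 9.13 to 12.28 at Rothamsted in 2010 (difference -0.29, adjusted p = 0.535), and was higher at RAGT by 1.02 in 2011 (adjusted p = 0.0454, limma).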
